A study of Mus musculus with 6 samples.

Results

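The genes described are 10 immediate early genes of the AP-1 and Egr type: Fos, Fosb, Fosl2, Jun, Junb, Jund, Egr1, Ier2, Btg2 and Atf3. They were followed through all 14 probe sets annotated to exactly 1 of these symbols, among 45101 probe sets and 18193 genes on the Affymetrix Mouse Genome array. The samples were mouse cells labelled as neural stem cells and divided by green fluorescent protein (GFP), which reports on Spot14, the product of the thyroid hormone responsive gene Thrsp. There were 3 GFP positive and 3 GFP negative arrays, which the design text calls biological replicates. The labels do not say whether arrays of the same replicate number belong together. Strain, age, tissue of origin, culture and the way the cells were separated are not given in the sources used here, nor is the promoter that drives the reporter. No treatment is named for either group.

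Immediate early genes are transcribed within minutes of a stimulus, without new protein synthesis, and their transcripts are short-lived. Fos and Jun family proteins pair through leucine zippers to form AP-1 transcription factors, and Atf3 can join such pairs. Egr1 is a zinc finger transcription factor induced by the same kinase cascades. In neural tissue these genes are known to respond to growth factors and neuronal activity, and also to the dissociation and sorting of cells, so that their levels are often read as a sign of handling.

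None of the 10 genes passed the test between GFP positive and GFP negative cells, and 9 of them differed by at most 1.20-fold (Jun) between the group means. These 9 gave log2 signals of 11.17 to 14.84 on every array, where the array medians were 3.55 to 3.66 and the highest signals 15.61 to 15.69, and differed by 0.01 to 0.26 on the log2 scale. Junb, a Jun family subunit, was the exception in size: its log2 signal was 8.96 ± 0.06 in GFP positive and 8.15 ± 0.51 in GFP negative cells (SD, n = 3 each), which is 1.75-fold higher, with a limma adjusted p of 0.157. The 0 genes passing a limma adjusted p of 0.05 stand beside 4.46% of the 10531 genes tested (2.35% with a higher level in GFP positive cells, 2.11% with a lower one). At an unadjusted p under 0.05 limma counted 1 of the 10 genes, Junb, beside 18.2% of all genes tested. All 10 differences were positive, with a median of 0.13 against 0.0049 over all genes tested, of which 50.5% were positive. That common sign was not stable: 6 of the 10 genes (Fosb, Fosl2, Egr1, Ier2, Btg2 and Atf3) were negative under at least 1 alternative setting.

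**Figure D1:**
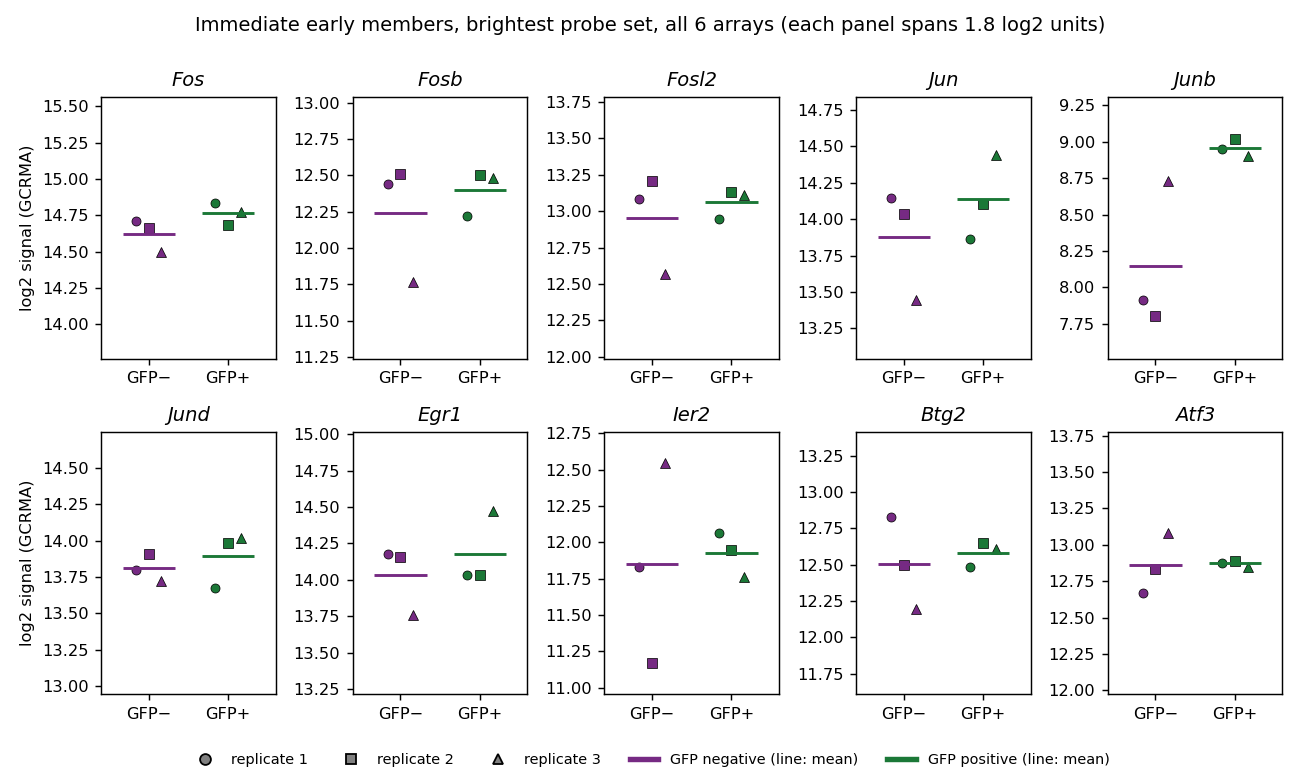
Log2 signal of the brightest probe set of each of the 10 genes on all 6 arrays, 1 panel per gene; symbols mark the replicate, lines the group mean. In the Junb panel all 3 GFP positive arrays lie above all 3 GFP negative arrays, while the groups overlap in the other 9 panels.

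The 5′ flanks of 5 of the genes are shown because they hold the kinds of element through which immediate early genes are known to be induced, or, for Junb, because this gene differed most. RefSeq's promoter table (GRCm38.p6) held 8 of the 10 genes. The 180 bases before the annotated start are printed 5′ to 3′ on the gene's strand, and capitals mark matches to the cyclic AMP response element (CRE, TGACGTCA), its core TGACGT, the AP-1 site TGANTCA, the AP-1 variant TGACATCA known from the Jun promoter, the CArG box bound by serum response factor, and the Egr site GCGNGGGCG, searched on both strands.
Fos, chr12:85473710-85473889, plus strand: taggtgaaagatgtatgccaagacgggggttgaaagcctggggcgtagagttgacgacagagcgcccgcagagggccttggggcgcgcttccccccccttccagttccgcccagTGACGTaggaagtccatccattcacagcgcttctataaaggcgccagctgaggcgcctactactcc
Jun, chr4:95052223-95052402, minus strand: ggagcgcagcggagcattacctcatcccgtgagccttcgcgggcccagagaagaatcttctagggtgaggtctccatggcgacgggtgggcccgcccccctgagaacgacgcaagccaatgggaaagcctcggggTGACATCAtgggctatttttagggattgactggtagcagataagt
Junb, chr8:84978749-84978928, minus strand: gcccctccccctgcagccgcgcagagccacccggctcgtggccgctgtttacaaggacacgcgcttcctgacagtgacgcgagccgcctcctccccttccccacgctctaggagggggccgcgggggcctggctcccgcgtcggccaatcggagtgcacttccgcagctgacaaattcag
Btg2, chr1:134079156-134079335, minus strand: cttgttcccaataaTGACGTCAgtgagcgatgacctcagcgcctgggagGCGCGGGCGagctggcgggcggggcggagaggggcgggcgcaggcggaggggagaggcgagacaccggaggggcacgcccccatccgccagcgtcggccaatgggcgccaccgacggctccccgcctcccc
Atf3, chr1:191183334-191183513, minus strand: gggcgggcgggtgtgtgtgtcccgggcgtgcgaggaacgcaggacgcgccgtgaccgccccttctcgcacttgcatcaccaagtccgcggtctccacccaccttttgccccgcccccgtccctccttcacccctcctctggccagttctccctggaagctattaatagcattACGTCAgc
In the 250 bases searched, the CRE core was found in 3 of the 8 genes (Fos, Btg2 and Atf3), beside 6.47% of 32851 RefSeq windows of the same length. The full CRE, which contains the core on both strands, was found in Btg2 alone (1.55% of windows). Jun held the variant TGACATCA 45 bases before its start (2.93% of windows). The Egr site was found in Fosb, Fosl2 and Btg2 (4.70% of windows). No match to TGANTCA (6.75% of windows) or the CArG box (1.47%) lay in any of the 8 windows. Sequence further upstream was not searched, nor was that of Egr1 and Ier2, so elements there are not covered. The Junb window held none of these elements. These are matches of letters and no evidence of binding.

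Among the Fos family, Fos, the founding member and a partner of Jun proteins, had the steadiest signal. Its log2 signal in replicates 1, 2 and 3 was 14.84, 14.68 and 14.78 for GFP positive cells and 14.71, 14.66 and 14.50 for GFP negative cells, the order used throughout. The groups overlapped, and GFP negative replicate 3 was the lowest array. The difference was 0.14 (95% limma interval −0.24 to 0.53, limma adjusted p = 0.734). That interval leaves room for at most a 1.44-fold higher or 1.18-fold lower signal in GFP positive cells. By brightness Fos ranked 28 to 76 among all probe sets. Whether signals as bright as those of Fos, Jun and Egr1 follow transcript level in proportion was not tested. An exact 2-sided permutation test gave p = 0.2, where 0.1 is the smallest that 3 arrays against 3 allow. Fosb, which also pairs with Jun proteins, measured 12.22, 12.50 and 12.48 in GFP positive and 12.44, 12.51 and 11.77 in GFP negative cells. Apart from the low GFP negative replicate 3, the arrays of both groups lay at the same level, and the difference was 0.16 (−0.41 to 0.73, limma adjusted p = 0.800). Fosl2, a Fos-related antigen, gave nearly the same profile, with 12.95, 13.13 and 13.11 against 13.08, 13.21 and 12.57. Its difference was 0.11 (−0.39 to 0.61, limma adjusted p = 0.854), and again only GFP negative replicate 3 stood low. Fosb and Fosl2 were the closest of all 45 pairs among the 10 genes, with a root mean square difference of 0.06 between their log2 values after each was centred on its own mean.

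In the Jun family the 3 genes did not move alike. Junb measured 8.95, 9.02 and 8.90 in GFP positive cells, against 7.91, 7.80 and 8.73 in GFP negative cells. The GFP positive arrays lay close together and above all GFP negative arrays, but GFP negative replicate 3 lay nearer to them than to the rest of its own group. The difference was 0.81 (95% limma interval 0.18 to 1.43, limma adjusted p = 0.157, higher in 3 of 3 GFP positive arrays than in any GFP negative array), and the exact permutation p was 0.1, the smallest possible. Junb was the only one of the 10 genes whose groups did not overlap, beside 25.3% of all genes tested. Without GFP negative replicate 3 the difference was 1.10, or 2.14-fold (0.75 to 1.44), and passed (limma adjusted p = 0.00932, where 11.8% of genes passed). It passed as well with array weights (1.08, limma adjusted p = 0.0054, where 15.7% of genes passed). Those weights were uneven in both groups: 0.152 for GFP negative replicate 3, 8.35 for GFP positive replicate 2, and 0.762 to 1.22 elsewhere. On the GFP positive side, every result with array weights, here and below, thus leans mostly on replicate 2. Junb did not pass in the other alternatives. Over the 17 alternatives its limma adjusted p spanned 0.0054 to 0.470, with the difference between 0.64 and 1.10.

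Jun, the central AP-1 subunit, had log2 values of 13.87, 14.11 and 14.44 in GFP positive and 14.15, 14.03 and 13.45 in GFP negative cells at its brighter probe set. The highest array was GFP positive replicate 3 and the lowest GFP negative replicate 3, with the others mixed. The difference was 0.26 (−0.33 to 0.86, limma adjusted p = 0.672), or a signal at most 1.81-fold higher. Jund, which is known as the least inducible Jun subunit, measured 13.67, 13.98 and 14.02 against 13.80, 13.91 and 13.72. Its groups overlapped fully, and the difference was 0.08 (−0.34 to 0.50, limma adjusted p = 0.874). A further Jund probe set lay near background at 2.25 to 2.33 on all arrays and was not tested.

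**Figure D2:**
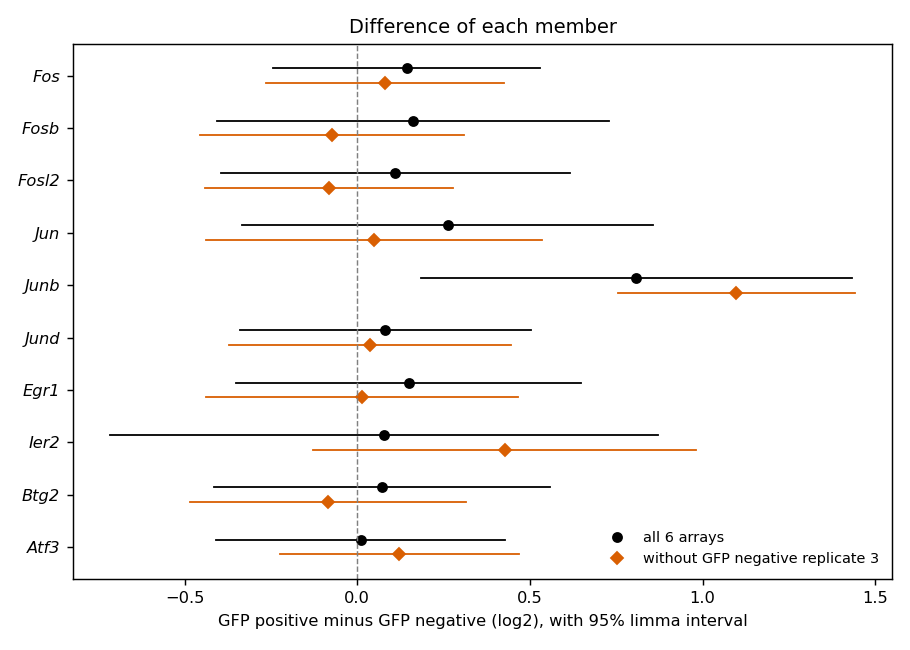
Difference between GFP positive and GFP negative cells for each of the 10 genes on the log2 scale, with 95% limma intervals, from all 6 arrays (circles) and without GFP negative replicate 3 (diamonds). The interval of Junb lies above 0 in both fits, and those of the other 9 genes include 0 in both.

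Egr1, which shares its inducing cascades with Fos, was steady across the groups. Its only probe set measured 14.03, 14.03 and 14.47 in GFP positive and 14.17, 14.16 and 13.76 in GFP negative cells. GFP positive replicate 3 was the highest array and GFP negative replicate 3 the lowest, and the other 4 arrays fell within a narrow range between them. The difference was 0.15 (−0.35 to 0.65, limma adjusted p = 0.792), so that a signal change above 1.57-fold higher or 1.28-fold lower lies outside the interval. Atf3, a stress-induced factor of the ATF family, measured 12.87, 12.89 and 12.85 against 12.67, 12.83 and 13.08. The GFP positive arrays were nearly identical and fell inside the range of the GFP negative arrays, with a difference of 0.01 (−0.41 to 0.43, limma adjusted p = 0.985).

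Ier2 and Btg2 encode no bZIP protein: Ier2 is a nuclear immediate early protein, and Btg2 restrains cell division and is also induced by p53. Ier2 had the widest spread, at 12.07, 11.95 and 11.76 in GFP positive and 11.83, 11.17 and 12.55 in GFP negative cells. GFP negative replicate 2 was the lowest and replicate 3 the highest of all arrays, so the GFP negative range enclosed the GFP positive one. The difference of 0.08 therefore carried a wide interval (−0.72 to 0.87, limma adjusted p = 0.944). Btg2 measured 12.48, 12.65 and 12.61 against 12.83, 12.50 and 12.20, where the GFP negative arrays were both the highest and the lowest. Its difference was 0.07 (−0.42 to 0.56, limma adjusted p = 0.908).

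GFP negative replicate 3 set much of the spread in these genes. It was the lowest of the 6 arrays for 6 of the 10 genes (Fos, Fosb, Fosl2, Jun, Egr1 and Btg2), while 23.2% of all genes tested had their lowest value there. For Ier2 and Atf3 it was the highest array, as it was for 37.1% of all genes tested. The standard deviation was larger among GFP negative than GFP positive arrays for 8 of the 10 genes, as for 80.2% of all genes tested, and for 8 genes it exceeded the difference between the groups. Across all tested genes, which are not independent replicates, GFP negative replicates 1 and 2 correlated at 0.982 with each other. With the GFP positive arrays they correlated at 0.953 to 0.972. GFP negative replicate 3 correlated with replicates 1 and 2 of its group at 0.954 and 0.952, and with the GFP positive arrays at 0.935 to 0.955. Without it Fosb, Fosl2 and Btg2 were slightly negative (−0.07, −0.08 and −0.08), Fos, Jun, Jund and Egr1 stayed within 0.01 to 0.08, and Ier2 was 0.43 (limma adjusted p = 0.274). Apart from Junb, none of the 10 genes passed in that fit, and Junb and Atf3 were the genes whose groups did not overlap, beside 47.7% of all genes.

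**Figure D3:**
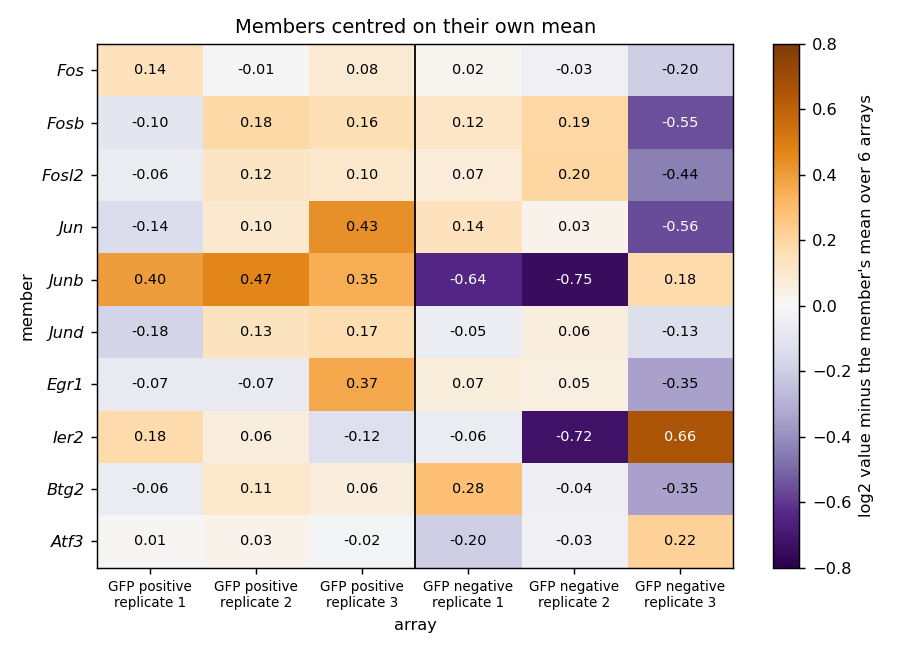
Each gene's log2 value minus its own mean over the 6 arrays; purple is below and orange above that mean. The column of GFP negative replicate 3 is low for Fosb (−0.55), Fosl2 (−0.44), Jun (−0.56), Egr1 (−0.35) and Btg2 (−0.35) and high for Ier2 (0.66) and Atf3 (0.22), and the Junb row is low on GFP negative replicates 1 and 2.

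Fosl2, Jun and Btg2 each had a dimmer probe set above the low-value filter as well, and these did not repeat the low value on GFP negative replicate 3. The dimmer Jun probe set measured 13.65, 13.43 and 13.38 in GFP positive and 12.98, 12.94 and 13.53 in GFP negative cells. Here GFP negative replicate 3 was the second highest array, while at the brighter probe set it was the lowest. The difference was 0.33 (−0.19 to 0.86), and when the 18742 probe sets above the filter were fitted one by one, of which 2.37% passed, the limma adjusted p was 0.545. The dimmer Btg2 probe set read 10.40, 10.14 and 10.32 against 10.72, 8.84 and 9.86, with GFP negative replicate 2 as the lowest array (difference 0.48, limma adjusted p = 0.677). That of Fosl2 read 6.22, 6.51 and 6.08 against 5.50, 6.42 and 6.32, with GFP negative replicate 1 as the lowest (difference 0.19, limma adjusted p = 0.811). The groups overlapped at all 3 dimmer probe sets, while they did not at 23.4% of all probe sets tested. Both probe sets of each of these 3 genes gave the same call and sign but ordered the arrays differently.

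**Figure D4:**
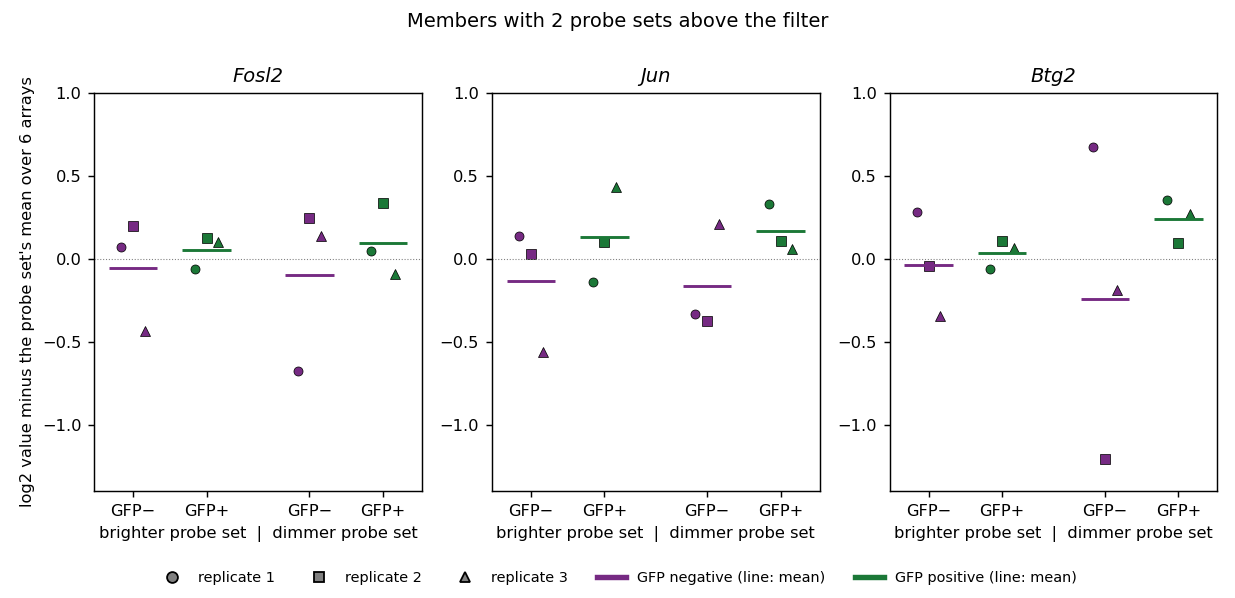
Log2 values of the brighter and the dimmer probe set of Fosl2, Jun and Btg2, each centred on its mean over the 6 arrays; symbols mark replicates and lines group means. The triangle of the GFP negative group, replicate 3, is lowest at each brighter probe set and not lowest at any dimmer one.

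Among the RNA control measures, the 3′ over 5′ excess of Gapdh stood out on GFP negative replicate 2 and, less, on GFP negative replicate 3. On the log2 scale it was 1.14 to 1.32 on the GFP positive arrays and GFP negative replicate 1. It was 1.65 on GFP negative replicate 3 and 2.33 on GFP negative replicate 2. The same excess of actin was 1.77 to 2.03 on GFP positive arrays and 1.87 and 1.99 on GFP negative replicates 1 and 3. For actin too it was highest, at 2.65, on GFP negative replicate 2. That array was the lowest for Ier2, Junb and the dimmer probe sets of Jun and Btg2, and the part of the control excess in these values was not tested directly; with the Gapdh ratio as a covariate Junb was at 0.74 and Ier2 at −0.20 (limma adjusted p = 0.470 and 0.918). The middle probe set for 18S ribosomal RNA lay at 12.82 to 13.03 on GFP positive arrays. On GFP negative arrays it was 14.04, 14.12 and 13.39, so it moved with the groups and was lowest there on replicate 3. Its part in the results was not tested. Among 11 heat shock and chaperone genes tested, 1 passed, Hspa1a, with 5.08, 5.70 and 5.76 against 3.98, 4.23 and 3.85. All GFP positive arrays lay above the GFP negative ones, which were near background, so that Hspa1a passed the low-value filter at log2 4 mainly through the GFP positive arrays and was not tested at a filter of log2 6. The difference was 1.49 (SE 0.24, limma adjusted p = 0.0192), and its size against such a group is uncertain. The near-identical paralog Hspa1b, named to complete the pair, was at 11.17 ± 0.45 and 10.38 ± 0.49 (SD, n = 3; difference 0.79, limma adjusted p = 0.251), and passed under 3 other choices of probe set (1.32 to 1.37, limma adjusted p = 0.0167 to 0.0281). Signals of such a near-identical pair are uncertain on an array. Hspa1a lost its call when any one GFP positive array or GFP negative replicate 2 was left out, with no filter and with the Gapdh covariate, where its limma adjusted p was 0.0519 to 0.10. The median over the 11 genes was 0.12, and the part of these genes in the results for the 10 was not tested.

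Other immediate early genes had no call either. Of 32 further ones on the array 31 were tested, 21 positive and 10 negative, with a median difference of 0.17, and 0 passed the limma threshold. Without adjustment limma put 0 higher and 1 lower at p under 0.05, the latter being Fosl1. Egr2 and Gadd45g, the brightest of them, differed by 0.20 and 0.03 (limma adjusted p = 0.689 and 0.957). Fosl1, named after its value was seen because it completes the Fos family, measured 4.31, 5.17 and 3.43 in GFP positive and 5.31, 5.67 and 5.85 in GFP negative cells. Its groups did not overlap, but it lay near background and did not pass (−1.31, limma adjusted p = 0.144). Egr3 and Egr4, which complete the Egr family, were at 0.18 and −1.50 (limma adjusted p = 0.762 and 0.428), and Egr4 was near background. Without GFP negative replicate 3, 1 of the 31 genes passed, and with array weights 2 did.

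Of 16 genes tested from a list of feedback inhibitors of several kinds, 0 passed. The difference was positive for 13, with a median of 0.25, and 3 were higher and 0 lower at an unadjusted limma p under 0.05, beside 18.2% of all genes in either direction. Those 3, named after their values were seen, were Socs3 (0.63), Nfkbia (0.46) and Zfp36l2 (0.46); Socs3 passed without probe sets open to cross-hybridisation (1.11, limma adjusted p = 0.0419), and Nfkbia with array weights (0.49, 0.0496) and when all probe sets were fitted (0.99, 0.0465). Dusp1, a phosphatase that switches off MAP kinases, and Zfp36l1, which speeds the decay of AU-rich transcripts, were the brightest, at 0.28 and −0.02 (limma adjusted p = 0.492 and 0.981). On GFP negative replicate 3 the list's median lay at −0.36 relative to each gene's mean, against −0.04 to 0.15 on the other arrays.

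Upstream kinases and factors, of which 18 were tested, had 0 calls and a median of −0.09; at an unadjusted limma p under 0.05 there were 0. The brightest were Mapk10, a JNK kinase, and Elk4, a cofactor of serum response factor, at 0.14 and −0.11 (limma adjusted p = 0.757 and 0.803). Of 10 other bZIP partners tested 0 passed (median 0.18; 1 higher at an unadjusted limma p under 0.05, Jdp2, at 0.42, named after its value was seen). Atf4 and Maff, the brightest of these, were at −0.08 and 0.14 (limma adjusted p = 0.903 and 0.734). Of 19 known AP-1 and Egr1 targets 17 had a probe set, 8 of these lay below the filter, and 0 of the 9 tested passed (median 0.01). At an unadjusted limma p under 0.05, 2 were higher, Hmox1 and Vegfa (0.80 and 0.81, named after their values were seen), and 1 lower. Hmox1 passed with array weights (0.80, limma adjusted p = 0.0275). The lower one was Ccnd1, cyclin D1, at −0.55 (limma adjusted p = 0.136, and 0.0319 to 0.451 over the alternatives), and Odc1, the first enzyme of polyamine synthesis, was at 0.01 (0.991).

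Of 17 neural stem cell markers with a probe set 16 lay above the filter, as did 57.9% of all genes. The list holds genes that astrocytes also express, such as Gfap, Slc1a3 and Vim, so that the labelled cell type was not told apart from these. Of the 16 differences 12 were positive and 4 negative, among the latter Nes (−0.49) and Egfr (−0.21), with a median of 0.49. At an unadjusted limma p under 0.05, 6 were higher and 0 lower, beside 18.2% of all genes. The groups did not overlap for 10 higher genes and 1 lower one, beside 25.3% of all genes. In that list 2 genes passed, both higher, Gfap and Nr2e1 (limma adjusted p = 0.0188 and 0.0308, with log2 means of 11.76 and 11.45 in GFP positive and 10.26 and 10.59 in GFP negative cells). Neither passed once any one GFP positive array was left out or with the Gapdh covariate, and 1 gene of the list passed without GFP negative replicate 1 or 2. The signals of proliferation genes moved with the groups far more than those of the immediate early genes did. Of 15 tested 14 fell, with a median difference of −1.91. The largest drops were those of Ttk, a spindle checkpoint kinase, and Cenpe, a kinetochore motor (−2.68 and −2.55, limma adjusted p = 0.0147 and 0.0383). Plk1, among the 14, passed the low-value filter only through the GFP negative arrays (4.63 to 5.45, against 2.74 to 3.48), so its call is uncertain. The part of the proliferation genes in the results for the 10 genes was not tested. The number that fell was 0, 7 and 0 with GFP positive replicate 1, 2 or 3 left out and 1 without GFP negative replicate 2, and likewise 0 with the Gapdh covariate and 1 with no filter; all 15 were lower at an unadjusted limma p under 0.05 in each of these fits. In such bulk RNA, fewer cells of a type and less RNA per cell cannot be told apart.

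Markers of other cell types were above the filter in part. Below it lay 11 of 13 markers of microglia and macrophages, 12 of 14 of endothelial and mural cells, 2 of 2 of erythroid cells, 7 of 15 of neurons and neuroblasts, 5 of 10 of the oligodendrocyte lineage and 4 of 8 of ependymal cells. Elavl4, a neuronal RNA-binding protein, fell: it stood at 5.90 ± 0.50 in GFP positive and 7.48 ± 0.50 in GFP negative cells (SD, n = 3; −1.59, limma adjusted p = 0.0474), and its adjusted p spanned 0.0375 to 0.162 over the alternatives. The neuronal list as a whole did not fall: of 8 genes tested, 4 differences were positive and 4 negative (median 0.05). At an unadjusted limma p under 0.05, 1 was higher, Nrxn3 (1.29, limma adjusted p = 0.0505). The 2 lower ones were Elavl4 and Neurod1 (−1.06 for Neurod1, limma adjusted p = 0.0796). The summed signal of the neuronal list was 14.49 to 14.55 (log2) on GFP positive arrays and 14.26 to 14.84 on GFP negative arrays. Acta2, a smooth muscle actin, fell from 5.24 ± 0.45 to 3.96 ± 0.22, near background (−1.29, limma adjusted p = 0.0413, and 0.0074 to 0.176 over the alternatives). Its endothelial and mural list summed to 6.76 to 6.94 against 7.01 to 7.18, without overlap. That sum includes Acta2 itself and is no separate evidence, and Flt1, the only other gene of the list tested, was at 0.08. Elavl4 lost its call in 11 of 17 alternatives and Acta2 in 9 of 15. Both calls were lost, among others, with no filter, with the Gapdh covariate and when any one GFP positive array or GFP negative replicate 2 was left out. The other lists had 0 calls by limma: at an unadjusted p under 0.05 there were 2 lower among oligodendrocyte markers, 1 higher among ependymal markers and 0 among microglial markers. Oligodendrocyte lineage markers summed to 14.14 to 14.33 against 14.17 to 14.28, with Cnp and Olig2 the brightest at 0.37 and −0.20. Microglial markers summed to 7.66 to 7.88 against 7.45 to 7.88 (Cd68 and Csf1r at −0.03 and 0.02), and ependymal markers to 8.59 to 9.13 against 8.20 to 9.48 (Rarres2 and Dynlrb2 at −0.05 and 0.72). Erythroid markers summed to 3.11 to 3.17 against 3.09 to 3.15. The part of these markers in the results for the 10 genes was not tested.

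**Figure D5:**
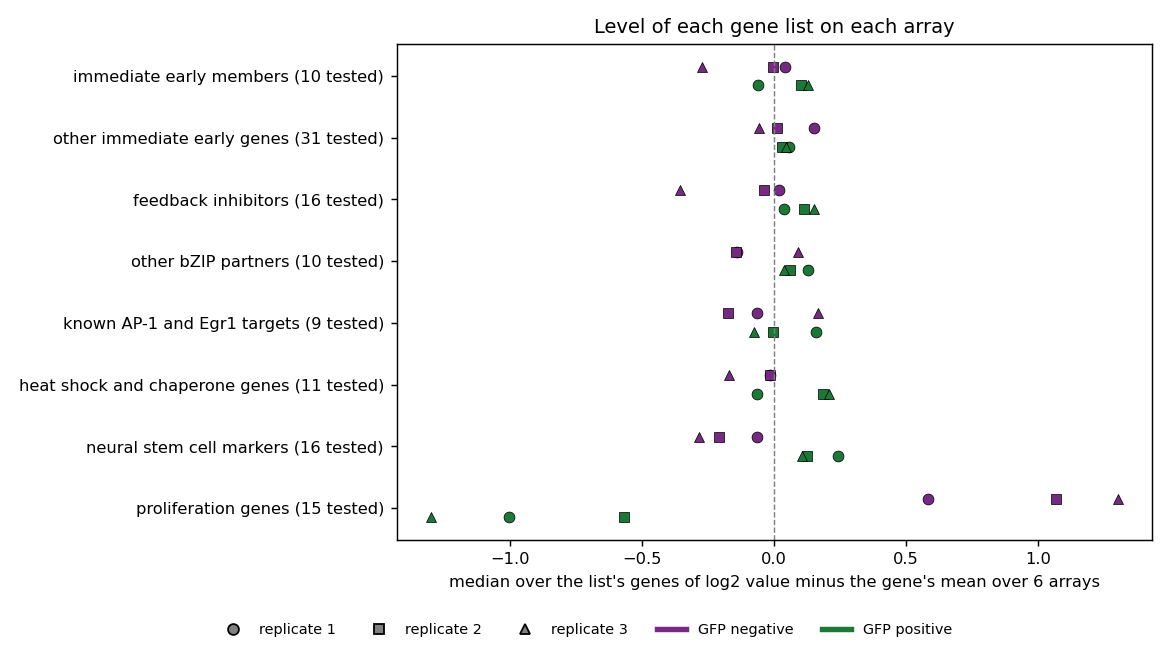
Median over the genes of each list of the log2 value minus the gene's mean over 6 arrays, 1 point per array; colour marks the group and the symbol the replicate. Proliferation genes lie at −1.30 to −0.57 on GFP positive and 0.58 to 1.30 on GFP negative arrays, whereas the 10 immediate early genes lie between −0.27 and 0.13 on all arrays.

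The genes whose profile over the 6 arrays was most like that of Fos were Tnrc6b, Elovl5, Clk4 and Alkbh5. Their root mean square difference from Fos, after each gene was centred on its own mean, was 0.03 to 0.04, where the median over 10521 other genes was 0.34. As many as 232 genes lay within 0.1 of Fos, whose own profile was nearly flat. For Egr1 the closest were Esco1, Cklf, Klf11 and Cul4a, at 0.06 to 0.08, and 25 genes lay within 0.1.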

How the data were processed

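Total RNA was labelled with biotin and hybridised to 1 array per sample, 6 in all. The log2 values were deposited by the authors, whose processing notes name GCRMA. Neither its version nor a genome build is given in the sources used here. This method removes a sequence-based background and gives all arrays a like distribution, so that dim genes sink to a floor and a shift of all genes is not visible. No column was left unused, and the number of arrays limits the precision.

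Gene names came from the annotation of the platform (34945 of 45101 probe sets named exactly 1 gene, control probe sets left out; 34741 were found in RefSeq). Each gene was read from its brightest probe set, and 10531 of 18193 genes with at least 3 of 6 arrays at log2 4 or more were tested. All 10 members passed this filter. The test was limma 3.58.1 under R 4.3.3 (lmFit, eBayes, no covariate), 2-sided, at a Benjamini-Hochberg adjusted p of 0.05 over every gene tested; the script was tested on simulated data. Differences are GFP positive minus GFP negative. p-values measure the spread between these arrays.

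The members and 14 gene lists of 223 symbols were chosen with earlier results of these data known, so lists get counts and medians and no test; 204 symbols had a probe set naming only that gene. Named were all members, from each list described up to 2 called genes per direction (largest differences) or else the 2 brightest, and the 4 genes most like Fos and Egr1; all other genes named were chosen after their values were seen. Alternatives were other filters, normalizations, probe set rules, variance models, array weights, a replicate block, a 3′ to 5′ covariate and each array left out in turn. Deviations of same-numbered arrays correlated at −0.25, 0.05 and −0.50. With 3 arrays per group these values cannot decide whether the numbers pair the arrays.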

Additional observations from a re-analysis of the deposited data

How the results depend on the processing

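With 3 arrays per group and GFP negative replicate 3 apart from the rest, the differences of 8 of the 10 genes were smaller than the SD of the GFP negative arrays. The number of the 10 genes that passed was 0 in 15 of 17 alternatives and 1, Junb, with array weights and without GFP negative replicate 3 (range 0 to 1 over the arrays left out). Each of the 5 lists of related immediate early, inhibitor, upstream, bZIP and target genes had 0 calls, and at most 2 in any alternative; with array weights these were 2, 1, 0, 0 and 2. The median difference over the 10 genes ran from 0.04 to 0.20 and moved by less than the spread between arrays throughout. The number with groups that did not overlap was 2 with a common median (Fos and Junb) and 2 with the median of probe sets (Jun and Junb), and 1 to 2 over the arrays left out. Over all genes the share was 25.3% in the main fit and 47.7% without GFP negative replicate 3. It is not given for the other settings, so those counts cannot be set against it. Over all genes, 470 passed; 294 did without a filter, 1654 with array weights, 1 with the 3′ to 5′ covariate, and 1 to 1244 over the arrays left out. With the replicate number as a block 27 genes passed and 0 of the 10. Hspa1a, Gfap, Nr2e1, Elavl4, Acta2 and the 14 proliferation genes then lost their calls (limma adjusted p = 0.0689, 0.0653, 0.163, 0.153 and 0.128 for the named ones). Whether the numbers pair the arrays is not known, and the cause of these changes was not tested.

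Of the genes whose difference was recomputed, these changed sign, and none of them passed in any alternative. Over the arrays left out one at a time, the difference ran from −0.073 (without GFP negative replicate 3) to 0.30 for Fosb, from −0.081 (likewise) to 0.24 for Fosl2, from −0.26 (without GFP negative replicate 2) to 0.43 for Ier2, from −0.084 (without GFP negative replicate 3) to 0.23 for Btg2 and from −0.087 (without GFP negative replicate 1) to 0.12 for Atf3. It ran from −0.041 to 0.11 for Gadd45g, from −0.15 to 0.079 for Zfp36l1, from −0.21 to 0.093 for Atf4, from −0.11 to 0.092 for Odc1, from −0.023 to 0.30 for Egr3, from −0.30 to 0.13 for Cd68 and from −0.30 to 0.35 for Rarres2. With array weights Egr1 was at −0.049, Atf4 at 0.012, Odc1 at −0.0080 and Rarres2 at 0.27. With the covariate Ier2 was at −0.20, Btg2 at −0.031 and Cd68 at 0.22, and with quantile normalization Atf3 was at −0.010 and Odc1 at −0.026. With a common median Zfp36l1 was at 0.052, Cd68 at 0.035 and Rarres2 at 0.016. With the median of probe sets Zfp36l1 was at 0.25, Atf4 at 0.12, Odc1 at −0.015 and Rarres2 at 0.095. With all probe sets Zfp36l1 was at 0.53, Atf4 at 0.33 and Rarres2 at 0.24. Rarres2 alone of these was at 0.24 also without probe sets open to cross-hybridisation.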
